A study of Mus musculus with 2 samples.

Results

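Gata3 and 9 genes of the Th2 program, namely Il4, Il5, Il13, Ptgdr2, Ecm1, Penk, Plcd1, Rnf128 and Cyp11a1, were followed in wild-type CD4 T cells grown under 2 cytokine conditions. They are 10 of the 18434 genes that had a named probe on the array. The choice was by name, with earlier results of these data known, through probes whose RefSeq accession belongs to one of them. These were 14 probes in all. The cells came from the spleen of C57BL/6 mice, were purified magnetically to over 98%, stimulated through the T cell receptor and CD28 for 2 days and cultured for 3 more days. The Th9 culture received 10 ng/ml of IL-4, 3 ng/ml of TGF-beta and 1 µg/ml of an antibody that neutralizes IFN-gamma. In the Th9+IFNgamma culture, the antibody was absent from the listed reagents, IL-4 stood at 3 ng/ml, IFN-gamma was added at 10 ng/ml and TGF-beta was the same, so that the IL-4 dose, the antibody and the added IFN-gamma all differed and their effects cannot be told apart. Each culture was read on 1 single-colour Agilent array, and how many mice stood behind it is not given in the labels. No value has a replicate, no test between the conditions was possible, and differences are described by size against a 2-fold limit.

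Gata3 is a zinc-finger transcription factor that commits helper T cells to the Th2 fate. IL-4 acting through its receptor and STAT6 raises Gata3, and Gata3 opens and activates the shared locus of the cytokines IL-4, IL-5 and IL-13, which drive antibody class switching to IgE, eosinophil growth and mucus production. T-bet, the Th1 factor encoded by Tbx21, represses Gata3 and can bind the Gata3 protein. Th9 cells arise when TGF-beta acts together with IL-4, and they too depend on STAT6 and Gata3.

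The Gata3 signal differed little between the cultures, whereas most of the Th2 effector genes chosen here were much lower in Th9+IFNgamma. Of the 10 genes, 9 were flagged by the scanner software as well above background on both arrays, here called measured, and Il5 passed that flag in Th9 only. Among these 9, 6 were lower in Th9+IFNgamma by 2-fold or more (Plcd1, Il4, Ecm1, Rnf128, Penk and Cyp11a1), 0 were higher by that much and 3 lay within 2-fold (Il13, Gata3 and Ptgdr2). Over all 12272 genes measured on both arrays, 7.42% were lower and 5.15% higher by the same rule. The median log2 difference, Th9+IFNgamma minus Th9, was -2.47 over the 9 genes and -0.01 over all measured genes. RNA was taken from whole cultures, so that fewer cells making a transcript and less of it per cell cannot be told apart.

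**Figure D1:**
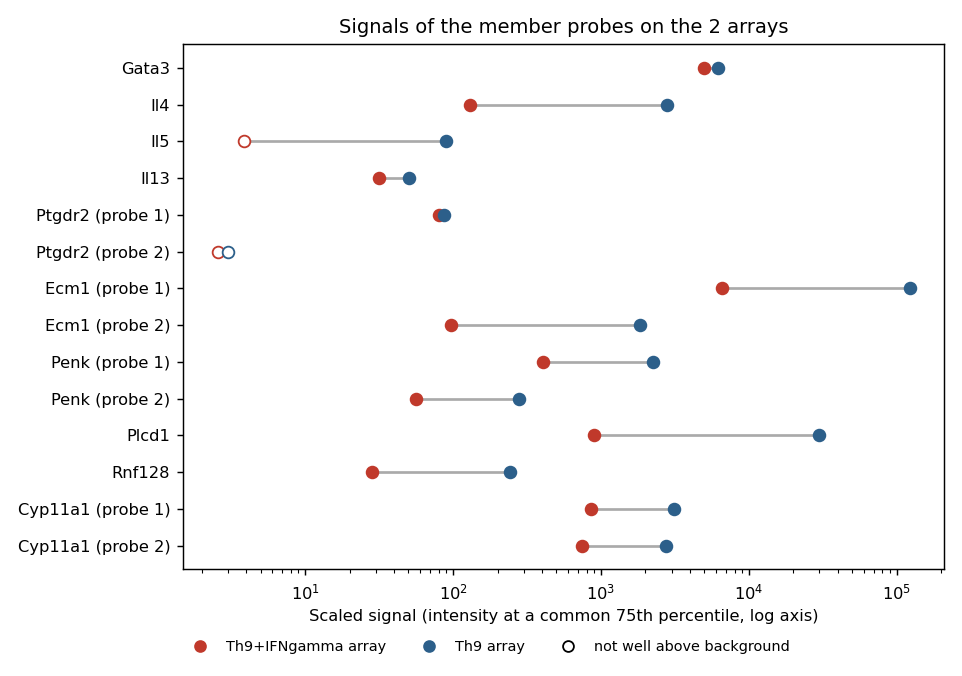
Scaled signal (log axis) of each of the 14 member probes on the Th9+IFNgamma array (red) and the Th9 array (blue), joined by a line, with open circles where a probe missed the background flag. The Gata3 points lie close together at 4983 and 6187, while the lines of Plcd1, Il4 and Ecm1 are long.

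Gata3 was read by 1 probe, at a scaled signal of 4983 in Th9+IFNgamma and 6187 in Th9. Scaled signals are intensities after both arrays were brought to the same 75th percentile, and they compare a gene with itself across the arrays. Gata3 was thus bright on both arrays and slightly lower in Th9+IFNgamma, by 1.24-fold, a log2 difference of -0.31. The scanner software attached an error of 0.20 to that log2 difference. Of the measured genes, 3370 (27.5%) had a difference as low as that of Gata3 or lower, and 1428 other genes lay within 0.1 of it. Over all processing settings the Gata3 difference ran from -0.37 to -0.16, below 0 and inside the 2-fold limit in each. The median log2 difference of the 8 other genes measured on both arrays was -2.79, and the Gata3 difference stood 2.47 above it. That gap was 1.92 with normexp, another way of correcting for background, and 3.35 when only genes with a signal of at least 100 on an array were kept, which dropped Il13 and Ptgdr2.

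**Figure D2:**
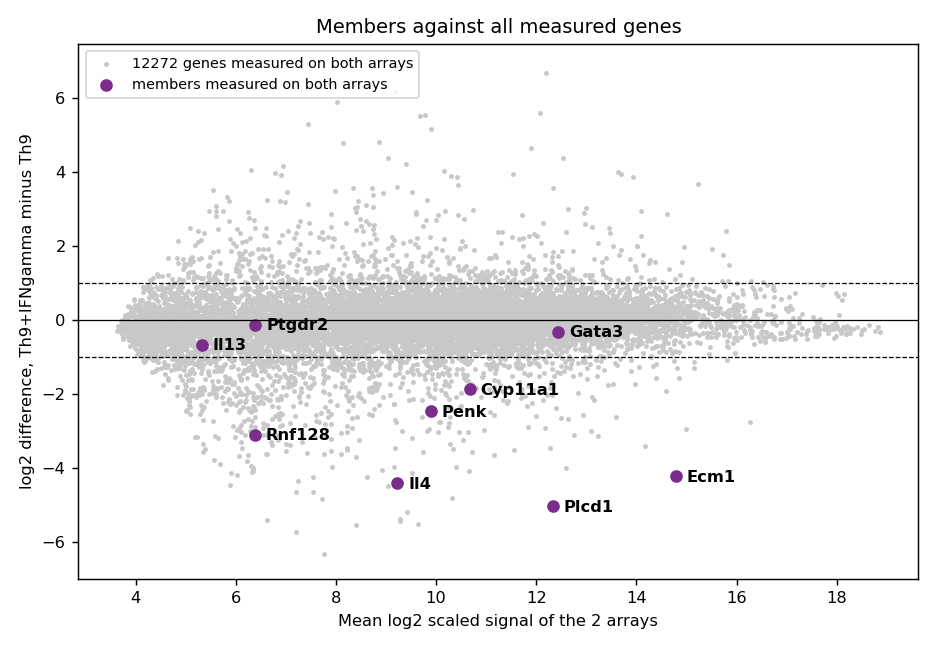
Log2 difference, Th9+IFNgamma minus Th9, against the mean log2 scaled signal for all 12272 genes measured on both arrays (grey) and for the 9 member genes among them (purple), with dashed lines at 2-fold. Gata3, at -0.31, lies inside the cloud, and Plcd1, at -5.04, Il4, at -4.42, and Ecm1, at -4.22, lie at its lower edge.

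The 3 cytokine genes are neighbours on chromosome 11, where the RefSeq gene order runs Kif3a, Il4, Il13, Rad50, Il5, Irf1. Their promoter windows are shown because these are the classical Gata3 target genes and lie in one locus, yet differed in size of change. Each window reaches from 250 bases before to 50 bases after the start site, is written 5′ to 3′ on the gene's strand, and comes from RefSeq on the GRCm38.p6 build: Il4 at chr11:53618616-53618915 (minus strand), Il13 at chr11:53634653-53634952 (minus strand) and Il5 at chr11:53720544-53720843 (plus strand). Capitals mark matches to the 4 motif families described after the sequences.
Il4: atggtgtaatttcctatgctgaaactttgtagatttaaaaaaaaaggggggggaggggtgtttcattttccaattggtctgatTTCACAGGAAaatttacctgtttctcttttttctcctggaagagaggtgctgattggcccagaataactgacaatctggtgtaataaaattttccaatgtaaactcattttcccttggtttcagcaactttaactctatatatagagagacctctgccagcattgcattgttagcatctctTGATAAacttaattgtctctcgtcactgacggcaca
Il13: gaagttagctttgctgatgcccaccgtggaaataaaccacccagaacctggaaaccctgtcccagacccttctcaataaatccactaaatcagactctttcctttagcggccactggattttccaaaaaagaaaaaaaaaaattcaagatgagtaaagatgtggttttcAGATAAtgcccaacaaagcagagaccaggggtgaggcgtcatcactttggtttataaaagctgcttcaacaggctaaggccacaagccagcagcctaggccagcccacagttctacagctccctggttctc
Il5: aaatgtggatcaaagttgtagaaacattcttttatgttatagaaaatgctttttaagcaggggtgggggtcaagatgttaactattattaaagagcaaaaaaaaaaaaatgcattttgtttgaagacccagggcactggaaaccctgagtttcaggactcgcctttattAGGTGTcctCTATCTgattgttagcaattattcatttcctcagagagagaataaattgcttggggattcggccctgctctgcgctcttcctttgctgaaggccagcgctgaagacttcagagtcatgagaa

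The motifs were searched on both strands. The GATA family has 4 forms here, AGATAA with its variant ending in G, written AGATAG, and TGATAA with its own such variant, written TGATAG. The others were the STAT6-type palindrome (TTC and GAA with any 4 bases between them), the GAS-type palindrome (the same with 3 bases between, so that the types can overlap) and the T-box core AGGTGT. The first base of a GATA form lay at base -81 of Il13 (AGATAA), at base -72 of Il5 (AGATAG, on the other strand) and at base 15 of Il4 (TGATAA), counted from the start site as base 1. The Il4 window also held a STAT6-type match at base -167, and the Il5 window a T-box match at base -81. Il4 has a second annotated start, whose window held a GATA form at base -80 and a GAS-type match at base -4. Any GATA form was found in 29.8% of all 32851 promoter windows of this length, a STAT6-type match in 6.95%, a GAS-type match in 8.30% and a T-box match in 13.7%. A match of letters is a description of the sequence and not a binding site.

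Il4, the cytokine that starts and maintains the Th2 program, was read by a probe printed 10 times on each array, which gives the only repeated reading among these genes. On the Th9+IFNgamma array its spots ran from 121 through a median of 131 to 134, and on the Th9 array from 2611 through 2798 to 2918. All 10 Th9 spots lay above all 10 Th9+IFNgamma spots, and the lowest of the former was 19.4-fold above the highest of the latter. The mean log2 difference was -4.42 ± 0.04 (SD over 10 spot pairs), 21.4-fold lower in Th9+IFNgamma. This SD covers the printing and reading of spots in these 2 hybridizations and none of the variation between cultures. Only 16 measured genes (0.130%), Il4 included, had a difference this low or lower. With normexp the difference was -3.84.

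**Figure D3:**
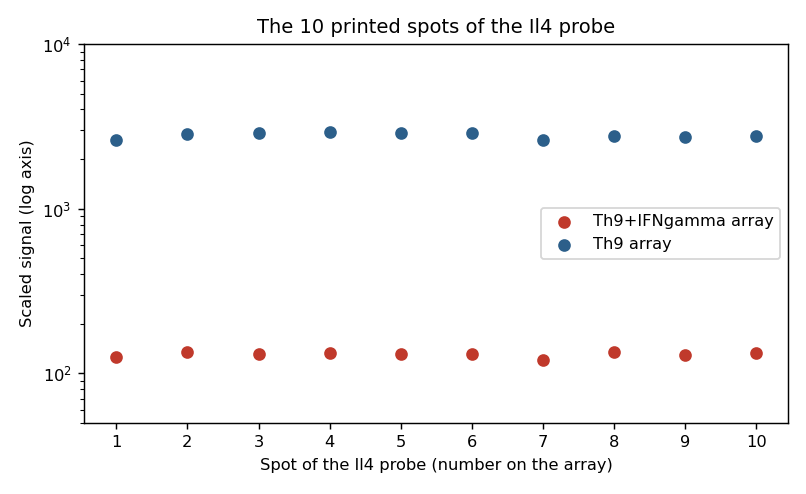
Scaled signal (log axis) of each of the 10 spots of the Il4 probe, red for Th9+IFNgamma (121 to 134) and blue for Th9 (2611 to 2918). The spots of either array form a flat row and the rows do not overlap.

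Il5, the growth and survival factor of eosinophils, was dim. Its probe read 89.4 in Th9, whereas in Th9+IFNgamma it read 3.85, not well above background. The difference therefore has only a bound, set by 11.1, the lowest signal in Th9+IFNgamma that passed the flag. By this bound Il5 was lower by at least 8.05-fold, and with normexp by at least 2.33-fold. Il13, which drives mucus production and airway reactivity, was dim on both arrays, at 31.5 in Th9+IFNgamma and 50.3 in Th9. Its log2 difference of -0.67, 1.59-fold lower, was small beside those of its neighbour Il4. Single spots of repeatedly printed probes with signals below 64 spread by -0.51 to 0.53 (central 95%) about their probe's mean log2 difference. The Il13 difference lay just outside this range. With normexp it was -0.42, which cannot be set against the range because the range was taken from signals without the normexp correction. The range covers spots alone and no variation between cultures. Over the settings the difference ran from -0.70 to -0.42.

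The neighbours of the cytokine genes shared no one direction. Between Il13 and Il5 lies Rad50, a DNA repair gene, at 958 in Th9+IFNgamma and 1086 in Th9, a log2 difference of -0.18. Kif3a, a kinesin motor gene on the other side of Il4, stood at 484 against 1000 (-1.05, or -0.99 with normexp). Its other probe gave -0.90, within 2-fold. Irf1, the interferon-induced factor next to Il5, was 7.30-fold higher in Th9+IFNgamma (67697 against 9271). Of the 21 protein-coding neighbours, 10 on either side and Rad50, 16 were measured, and 1 of them (Kif3a) was lower and 2 (Irf1 and Acsl6) were higher by 2-fold or more. The median log2 difference of the 16 was -0.08.

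Ptgdr2 encodes CRTH2, the receptor for prostaglandin D2 that serves as a surface marker of Th2 cells. Its brighter probe read 80.3 in Th9+IFNgamma and 87.3 in Th9, a log2 difference of -0.12 with a software error of 0.21. The difference was smaller than its error, and over the settings it ran from -0.19 to -0.01. A second probe missed the background flag in both cultures (2.56 and 3.01). Of the enzymes that make prostaglandin D2, Hpgds read 32.4 against 67.3 (-1.05, or -0.47 with normexp) and Ptgds 18.5 against 30.5 (-0.72). A wider list of prostaglandin genes, which takes in receptors and synthases of prostaglandin E2 such as Ptger2, had 9 other measured genes. Of these, 3 (Ptger2, Ptgs1 and Hpgds) were lower by 2-fold or more and none higher. With normexp 1 of them was, and the median moved from -0.57 to -0.36.

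Ecm1, a secreted glycoprotein that lets Th2 cells leave lymph nodes, was read by 2 probes. One read 6587 in Th9+IFNgamma and 122454 in Th9, and the other 97.0 and 1833. Both were far lower in Th9+IFNgamma and gave nearly the same log2 difference, -4.22 and -4.24, or 18.6-fold and 18.9-fold. The difference held from -4.25 to -4.10 over the settings, and 21 measured genes (0.171%) were as low or lower. Of 10 other measured genes tied to Ecm1 or to exit from lymph nodes, none was lower and 2 were higher by 2-fold or more, the S1P receptor gene S1pr4 (2.13-fold) and the matrix gene Fbln1 (4.24-fold). The other 8 lay within 2-fold by their brightest probe and went both ways, such as the S1P receptor gene S1pr1 (1.88-fold lower) and Il2rb (1.43-fold higher). Klf2, 1 of these 8, had 2 probes that disagreed, at -0.19 for the brighter and 2.07 for the other. The median of all 10 in this list was 0.29.

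The Ecm1 promoter is shown beside that of Gata3 because both held a GATA form, while Ecm1 was far lower in Th9+IFNgamma and Gata3 lay within 2-fold. The Ecm1 window is chr3:95739520-95739819 and that of Gata3 chr2:9878551-9878850, both on the minus strand of GRCm38.p6, with motif matches in capitals.
Ecm1: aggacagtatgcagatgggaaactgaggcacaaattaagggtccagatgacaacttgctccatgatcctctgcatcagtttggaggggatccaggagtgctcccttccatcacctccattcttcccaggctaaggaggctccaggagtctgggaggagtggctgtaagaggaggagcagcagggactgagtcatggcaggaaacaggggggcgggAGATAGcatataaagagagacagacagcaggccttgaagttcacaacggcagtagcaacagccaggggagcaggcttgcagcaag
Gata3: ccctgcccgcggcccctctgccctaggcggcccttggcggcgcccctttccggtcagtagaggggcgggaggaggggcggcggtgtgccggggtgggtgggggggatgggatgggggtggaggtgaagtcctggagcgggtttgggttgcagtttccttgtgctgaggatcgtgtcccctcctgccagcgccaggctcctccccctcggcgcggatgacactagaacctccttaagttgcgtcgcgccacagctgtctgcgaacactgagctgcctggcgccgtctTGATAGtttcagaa
A GATA form began at base -35 of Ecm1 (AGATAG) and at base 37 of Gata3 (TGATAG), and neither window held a match to the other 3 motifs. Windows were at hand for 9 of the 10 genes, all but Penk, and 6 of these 9 held a GATA form in at least 1 of their windows, namely Gata3, Il4, Il5, Il13, Ecm1 and Cyp11a1. Neither of the 2 windows of Plcd1, the gene with the largest difference, held any of the 4 motifs, nor did that of Ptgdr2. A T-box match stood in windows of Il5, Rnf128 and Cyp11a1. STAT6-type matches stood in windows of Il4 and Cyp11a1. Over the 12 member windows, 7 held a GATA form, 2 a STAT6-type match, 1 a GAS-type match and 3 a T-box match. Over all windows the shares were 29.8%, 6.95%, 8.30% and 13.7%. These shares count windows and cannot be set against the 6 of 9 genes. The share of all genes with a GATA form in at least 1 window was not computed, and no enrichment was tested.

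Penk encodes proenkephalin, the precursor of opioid peptides that activated helper T cells also secrete. One probe read 406 in Th9+IFNgamma and 2257 in Th9, and the other 56.4 and 279. Both were lower in Th9+IFNgamma, with log2 differences of -2.47 and -2.31, or 5.56-fold and 4.95-fold. As low or lower were 166 measured genes (1.35%). Of 7 other opioid and prohormone-processing genes measured, 2 were lower by 2-fold or more, the protease gene Ctsl (5.88-fold) and the carboxypeptidase gene Cpe (2.53-fold), and none was higher by as much. Their median was -0.04.

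Plcd1 encodes phospholipase C delta 1, which cleaves a membrane phosphoinositide to release second messengers. It read 898 in Th9+IFNgamma and 29590 in Th9. This was the largest measured difference among the 10 genes, 33.0-fold lower or -5.04 on the log2 scale, and it ran from -5.10 to -4.89 over the settings. Only 9 measured genes (0.0733%), Plcd1 included, were as low or lower, and no other gene lay within 0.1 of it. The measured relatives had smaller differences. Of 10 other phospholipase C genes, 2 were lower by 2-fold or more, Plcl1 (3.38-fold, 2.20-fold with normexp) and Plcb3 (2.07-fold, 1.57-fold with normexp), and none was higher by as much (1 with normexp). Their median was -0.52. Plce1, well above background only in Th9, was lower in Th9+IFNgamma by at least 3.29-fold (1.62-fold with normexp).

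Rnf128 encodes GRAIL, a membrane ubiquitin ligase known from anergic T cells, which restrains their cytokine production. Its probe read 28.5 in Th9+IFNgamma and 244 in Th9. The Th9+IFNgamma reading was near background, and the log2 difference of -3.10, 8.56-fold lower, depended on how background was corrected, with -1.86 or 3.63-fold by normexp. Of 15 other genes of the ligase's family and of anergy that were measured, 3 were lower and none higher by 2-fold or more, and the median was 0.03. The 3 were Egr2, an anergy-associated zinc-finger factor (104 against 851, 8.15-fold, or 5.32-fold with normexp), Nr4a2, an orphan nuclear receptor induced by T cell receptor signals (6.95-fold), and Nedd4, a ubiquitin ligase (2.13-fold).

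Cyp11a1 encodes the mitochondrial enzyme that turns cholesterol into pregnenolone, the first step of steroid synthesis, which Th2 cells also carry out. Its 2 probes read 851 and 747 in Th9+IFNgamma against 3120 and 2769 in Th9. Both were lower in Th9+IFNgamma and agreed in size, at -1.87 and -1.89 on the log2 scale, or 3.66-fold and 3.71-fold. As low or lower were 330 measured genes (2.69%). Fdx1 and Fdxr, which carry electrons to the enzyme and were named after their values were seen, were 1.64-fold and 1.78-fold lower. Of 11 other measured genes of steroid synthesis, none was lower and 1 was higher by 2-fold or more, Hsd11b1, which activates glucocorticoids (6911 against 1506, 4.59-fold). Their median was -0.11.

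**Figure D4:**
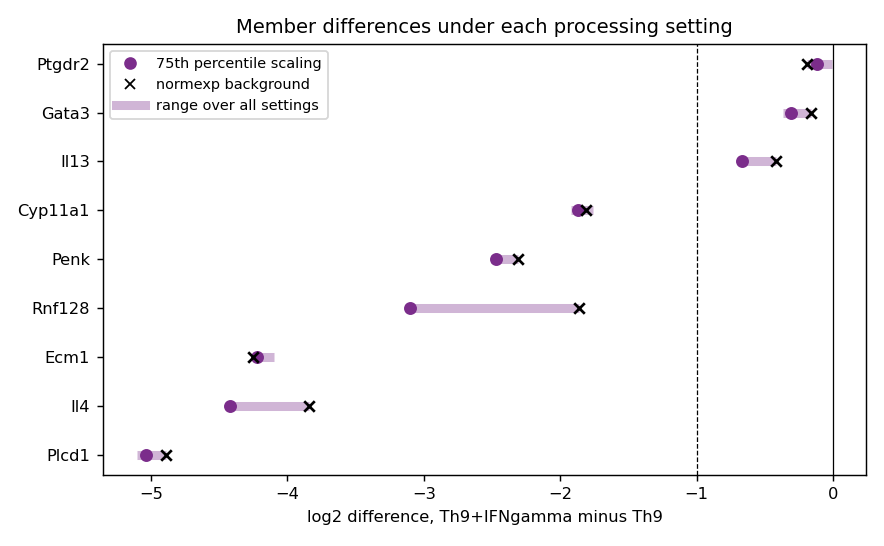
Log2 difference, Th9+IFNgamma minus Th9, of the 9 genes measured on both arrays, with the 75th percentile scaling (circles), with normexp (crosses) and over all settings (bars), and a dashed line at 2-fold lower. No bar crosses the dashed line, and the bar of Rnf128 is the longest, from -3.12 to -1.86.

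Among relatives of Gata3, Gata1, the erythroid and mast cell factor, was 3.53-fold higher in Th9+IFNgamma (1762 against 499). Gata6 went the other way, from 176 in Th9 to 12.7 in Th9+IFNgamma, close to background, 13.8-fold lower or 3.22-fold by normexp. Gata2 missed the background flag in both cultures. Of 5 measured genes of the GATA family and its cofactors besides Gata3, those were the 2 beyond 2-fold, and the median was -0.16. Tbx21, the antagonist of Gata3, stood at 5684 in Th9+IFNgamma and 158 in Th9 (36.1-fold higher), and the related Eomes at 2486 and 88.3 (28.2-fold higher, 16.4-fold with normexp). Of 18 measured antagonists and modifiers of Gata3, these were the 2 higher by 2-fold or more, Id2, which blocks E protein factors, was the 1 lower by as much (2.77-fold), and the median was 0.04.

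Upstream of Gata3, Il4ra and Stat6 lay within 2-fold, while Il2rg, the gene of the common gamma chain that joins Il4ra in the IL-4 receptor, was 2.20-fold higher in Th9+IFNgamma (8316 against 3786). Il4ra, the receptor's ligand-binding chain, read 43120 in Th9+IFNgamma and 56584 in Th9 (-0.39), and Stat6 2684 and 2977 (-0.15). The list of IL-4 signalling genes, which does not hold Il2rg, had 19 measured genes. Of these, 2 were lower by 2-fold or more, the feedback inhibitor Socs3 (2.96-fold) and the kinase gene Jak2 (2.29-fold, with its other probe within 2-fold at -0.90). The phosphatase gene Ptpn6 was the 1 higher (2.16-fold, with its other probe within 2-fold at 0.83). The median of the 19 was 0.05. Of 27 other Th2 transcription factor genes measured, 7 were lower and 1 was higher by 2-fold or more, and the median was -0.15. Those lower included Satb1, a chromatin organizer of the Th2 cytokine locus (3239 against 19182, 5.92-fold), Maf, an activator of the Il4 promoter (1118 against 4288, 3.84-fold), and Epas1 (3.72-fold). The higher one was Gfi1, a repressor that supports Th2 cell growth (2427 against 529, 4.59-fold). Gata3 thus lay within 2-fold, as did 19 of these 27 genes, on the same pair of arrays on which Maf and Satb1 did not.

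Most of the other type 2 cytokine genes measured resembled Il4 in direction. Of 15 listed besides the members, 7 missed the background flag in both cultures and 5 were measured. Of these 5, 4 were lower by 2-fold or more (3 with normexp), none was higher by as much, and the median was -2.03. Over all 15, with no detection filter, the median was -0.32. Il10 was 11.9-fold lower, Il9, the cytokine for which the Th9 culture is named, 10.5-fold lower (5661 against 59611), Il24 4.09-fold lower and Ccl17 3.64-fold lower (1.61-fold with normexp). Il21, well above background only in Th9, was lower by at least 5.12-fold (1.84-fold with normexp). Il3 went the other way, at 50.5 in Th9+IFNgamma and 27.1 in Th9 (1.86-fold higher, or 1.18-fold with normexp). Ccl1 and Csf2, well above background only in Th9+IFNgamma, were dim there (16.5 and 13.0) and higher by at least 1.32-fold and 1.04-fold. Of 16 type 2 receptor genes measured besides Ptgdr2, 4 were lower (3 with normexp) and 1 was higher by 2-fold or more, and the median was -0.13. The leukotriene receptor gene Cysltr1 (4.87-fold lower), the chemokine receptor gene Ccr4 (3.28-fold lower) and the IL-7 receptor gene Il7r (2.26-fold lower) were among these, and Il2rg was the higher one. Of 23 other effector and surface genes measured, 5 were lower and 2 higher by 2-fold or more (4 and none with normexp), and the median was -0.19. Il10 was counted in this list as well, as 1 of the 5 lower. Klf2, counted here as within 2-fold, had probes at -0.19 and 2.07. Tnfrsf8, which encodes CD30, read 332 in Th9 and 19.1 in Th9+IFNgamma (17.4-fold lower, or 5.39-fold with normexp), Ltb4r1, a leukotriene B4 receptor gene, was 10.1-fold lower, and Asb2, a ubiquitin ligase subunit gene, 5.76-fold lower. Timd2 had a bound of at least 6.06-fold lower (2.12-fold with normexp).

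**Figure D5:**
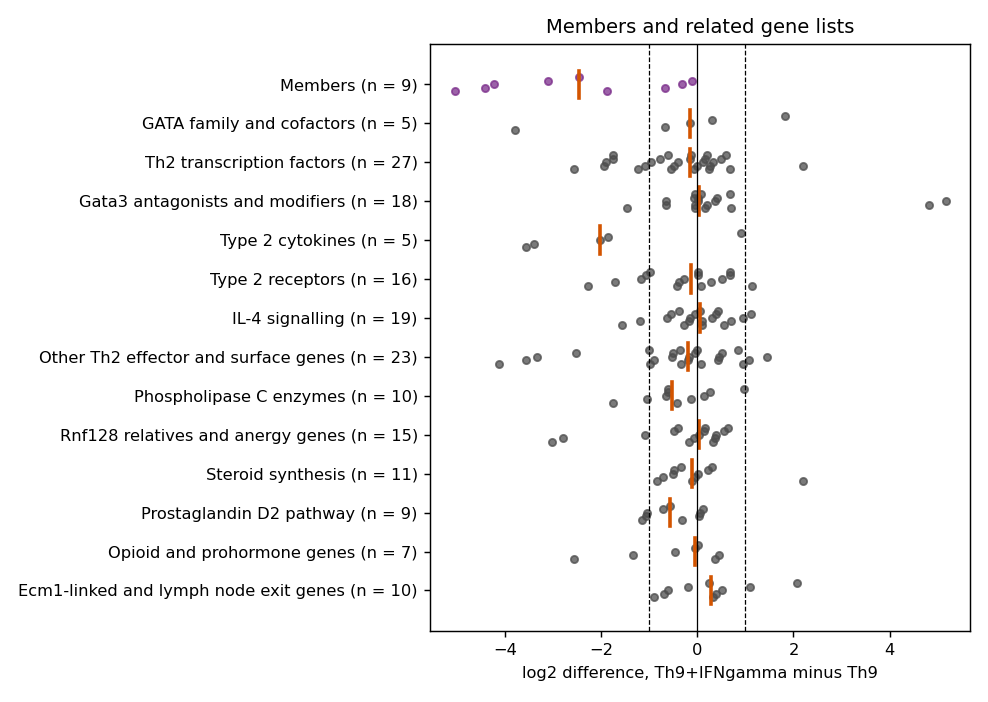
Log2 difference, Th9+IFNgamma minus Th9, of the 9 members measured on both arrays (purple) and of measured genes in 13 related lists from which the members were left out (grey), with medians in orange and dashed lines at 2-fold. The median of the members lies at -2.47 and that of the 5 type 2 cytokines at -2.03, while those of the other 12 lists lie between -0.57 and 0.29.

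Both cultures carried T cell markers, most of which CD4 T cells share with other T cells. All 14 CD4 T cell marker genes examined passed the background flag in both cultures, with a summed scaled signal of 414432 in Th9+IFNgamma and 315815 in Th9, and 2 of them (Trat1 and Cd247, the last with 0.19 to 1.09 on the log2 scale by its 3 probes) were higher in Th9+IFNgamma by 2-fold or more. Such sums add signals of unlike probes and are not a measure of cell number. Thy1 alone gave 136722 and 89079 of the T cell sums. Among the 14 markers, Cd4 itself read 502 in Th9+IFNgamma and 444 in Th9. Cd8a, a marker that CD4 T cells should lack, passed the flag too and differed little (1338 against 1074). Basophils, mast cells and eosinophils can also make IL-4 and IL-13. Of 13 of their marker genes with a probe, 3 passed the flag in Th9+IFNgamma and 6 in Th9, with summed signals of 172 and 343. The mast cell protease genes Cma1 (20.8 in Th9+IFNgamma and 74.5 in Th9, 3.58-fold lower, or 1.77-fold with normexp) and Mcpt4 (well above background only in Th9, at 101, and lower by at least 9.09-fold, or 2.43-fold with normexp) moved the same way as Il4. Fcer1a, which encodes a chain of the IgE receptor, moved the other way (59.2 and 26.7, 2.22-fold higher, or 1.28-fold with normexp). Hdc passed the flag on both arrays, and Prss34 and Prg2 in Th9 only. The other 7, Mcpt8, Ms4a2, Cpa3, Tpsb2, Epx, Siglecf and Il5ra, missed it in both cultures. Of 8 B cell markers 3 and 6 passed the flag (summed 950 and 1488), of 12 myeloid markers 4 and 5 (136 and 306), and of 7 markers of natural killer and innate lymphoid cells 5 and 4 (337 and 809), in Th9+IFNgamma and Th9 respectively. Cd79b alone gave 844 and 1187 of the B cell sums. Among the genes of these lists, the B cell gene Cd22 was lower in Th9+IFNgamma by at least 13.3-fold (3.28-fold with normexp) and the macrophage gene Adgre1 by 7.19-fold (2.74-fold with normexp). Klra8 and Rora, of the last list, were lower by 4.59-fold (1.84-fold with normexp) and 4.06-fold. Klrk1 of that list was higher in Th9+IFNgamma (128 against 90.5, 1.41-fold), as was the myeloid gene Cd14 (26.5 against 21.3, 1.24-fold). Arg1, also of the last list, was well above background only in Th9+IFNgamma (19.9) and higher by at least 1.59-fold. The part of the signals of any of these cell types in the differences of the 10 genes was not tested.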

How the data were processed

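RNA from 1 Th9+IFNgamma and 1 Th9 culture was hybridized to 1 single-colour (Cy3) Agilent array each, from 500 ng of total RNA per the labels' protocols. The authors' deposited intensity values come, per the file headers, from Agilent Feature Extraction 10.7.3.1, with background subtraction and detrending done array by array (version 10.7 per the submitters' processing notes). A second deposited table holds log2 values, which equalled log2 of a probe's median processed signal minus a constant near the array's 75th percentile (SD of the offset 2.5e-07 and 2.2e-07), so its scale and direction are known. Its column medians were -4.05 and -3.93.

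Here, log2 processed signals were averaged over the non-outlier spots of a probe, the array's 75th percentile (631.7 and 567.0) was subtracted, and values were returned to a common 598.5. Control spots and 3 probes flagged as outliers on an array were left out, and no spot was saturated. Of 41174 probes, 60.6% and 59.9% were well above background. RefSeq accessions were matched without version to GRCm38.p6, which named 27050 probes, while the array design names mm9, so coordinates are given for promoter windows alone. A gene takes its brightest probe well above background on both arrays. A bound divides the brighter signal by the dimmer one, or by the dimmest detected signal of that array if this is higher. The number of arrays limits the precision. Over 144 probes printed 10 times, the SD of single-spot log2 differences was 0.14, namely 0.28 below a signal of 64, 0.09 from there to 1024 and 0.05 above. Python 3.11.15 and limma 3.58.1 were used, the latter for normexp (offset 50), quantile and loess alternatives, and the calculation was tested on simulated data.

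The members and the gene lists were chosen with earlier results of these data known, so no list gives independent support. From each list up to 4 genes at least 2-fold apart whose probes had the same sign and up to 2 bounds could be named, besides the members and 8 fixed genes. Fewer than these are printed for some lists. One further gene was left out of the marker lists and is not reported here.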

Additional observations from a re-analysis of the deposited data

How the results depend on the processing

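No paired analysis was possible because each condition has 1 array, and no replicate could be left out. In all 11 alternatives the 9 members measured on both arrays kept the sign of their difference, except that Il13 and Ptgdr2 had no value with a signal of at least 100, and 6 members (7 where Il5 was counted from dim signals) were at least 2-fold lower, with 0 at least 2-fold higher. The gap between the Gata3 difference and the median of the other members was 2.47, and became 2.38 with quantile normalization, 1.92 with normexp, 2.79 when genes detected on at least 1 array or all genes were kept, and 3.35 with a signal of at least 100. Over all genes, normexp gave 582 at least 2-fold lower, and no detection filter gave 1788 lower and 1206 higher, against 910 and 632. With no filter, more genes were counted. The normexp offset adds 50 to every corrected signal before the logarithm, which by arithmetic shrinks the differences of dim probes most. How much of each change with normexp came from this was not tested. Median scaling gave 776 lower and 772 higher, and moved the median of all genes from -0.01 to 0.11 and that of Gata3 from -0.31 to -0.20. Normexp was planned on mean spot signals and run on median signals, a choice made after seeing the data. The Il5, Il13, Rnf128 and Ptgdr2 values rest on signals below 100 on at least 1 array.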
